A study of Canis lupus familiaris with 10 samples.

Results

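ASAH1, the gene of acid ceramidase, had more signal in hemangiosarcoma cells of every Golden Retriever than in those of every non-Golden Retriever, by about the same amount at both of its probe sets, and is described here together with 9 other genes of sphingolipid turnover. The set held ASAH1, SMPD1, CERS2, UGCG, SPHK1, SPHK2, SGPP1, SGPL1, S1PR2 and S1PR3, which are 10 of the 15115 genes that the array's annotation names. The genes were selected on the breed difference of the ASAH1 signal, with other results of these arrays already known, so their breed differences and correlations are given as a description, with no test of their own. All probe sets named for these genes were used, 16 of the 42924 besides controls. Of these, 15 probe sets of 9 genes lay above the 40th percentile of their array on at least 3 of the 10 arrays and were tested, and the single probe set of S1PR3 did not.

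Hemangiosarcoma is a malignant tumor of dogs that forms blood vessel channels, often in the spleen. The study asked whether gene expression in cultured hemangiosarcoma cells differs with the breed of the dog. It hybridized RNA of the earliest available passages to Affymetrix Canine_2 arrays, 1 array per dog. The Golden Retriever group held 6 dogs (ChadG4, ChadG6, ChadG8, Frog, Journey and Tucker), the Golden Mix was 1 dog (DD1, from a Golden Retriever and a Great Pyrenees), and the non-Golden Retriever group held 3 dogs, each of another breed (ChadP9, a Portugese Water Dog; Dal4, a Dalmation; Joey, a Rottweiler). None of the cultures had a treatment or a genetic change by the labels, all came from tumors, and Frog was the great aunt of Journey. Each culture came from 1 dog and was arrayed once, so that each SD here is taken over dogs and cannot be split into dog, culture and array. Sex and age are not in the sample labels, but the study lists ChadG6, Frog and Journey as females and the other 7 dogs as males, so that all non-Golden Retrievers were males.

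Sphingolipids are membrane lipids built on a long-chain base, and ceramide is their central intermediate. Ceramide is made by ceramide synthases or set free from sphingomyelin by sphingomyelinases, and is removed by conversion to glucosylceramide or by ceramidases, which release sphingosine. Sphingosine kinases then make sphingosine-1-phosphate, a ligand of receptors that control the barrier and growth of blood vessels, and a phosphatase and a lyase take it away. Ceramide is known for growth arrest and cell death, and sphingosine-1-phosphate for survival and migration.

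Values are log2 signals, on which a difference of 1 is a doubling, and the array medians ran only from 5.77 to 5.83. Levels are compared between dogs within a probe set and never between genes. Probe sets of 1 gene are numbered by falling mean signal. Of the 10 endothelial markers checked, 6 passed the filter, but PECAM1, TEK and ESAM were below the 40th percentile on every array, as were 3 of the 8 macrophage and blood markers, PTPRC, CD163 and ITGAM. The others of these 8 were tested, and CD14, CD68, CSF1R and CD34 lay above that percentile on all 10 arrays. The collagen genes COL1A1, COL1A2 and COL3A1 had at least 12.84, 14.00 and 13.92 in every dog. A pair of cultures stood apart. The matrix proteoglycan LUM ran from 12.47 to 14.08 in Golden Retrievers and had 4.40 in Dal4, and smooth muscle actin, ACTA2, had 6.39 in ChadG4 and at least 9.73 in the other dogs. A probe set named for EIF2S3, a gene of translation initiation that both sex chromosomes carry, had 2.95 in Dal4, which is listed as a male, 3.08 to 3.33 in the 3 females and 10.15 to 10.60 in the other 6 males. Breed differences of the selected genes that leaving out Dal4 moved by over 1.5 times or turned in sign are given without it as well. In bulk RNA, fewer cells of a type and less RNA per cell cannot be told apart.

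Acid ceramidase cleaves ceramide in the lysosome. At probe set 1 of ASAH1, the Golden Retrievers had a lowest signal of 12.61, a median of 12.82 and a highest of 13.06. DD1 had 12.36. Among the non-Golden Retrievers, ChadP9 had 12.02, Dal4 11.88 and Joey 12.17. The groups did not overlap, with a gap of 0.438 between the lowest Golden Retriever and the highest non-Golden Retriever, and DD1 lay in that gap. The means were 12.83 ± 0.198 in the Golden Retriever group (SD, n = 6) against 12.02 ± 0.144 in the non-Golden Retriever group (SD, n = 3), a log2 difference of 0.80 (SE 0.152) or 1.75-fold.

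Probe set 2 of ASAH1 gave the same picture. The Golden Retrievers had a lowest signal of 11.97, a median of 12.11 and a highest of 12.55, DD1 had 11.75, and the non-Golden Retrievers had 11.35 (ChadP9), 11.19 (Dal4) and 11.46 (Joey). The gap between the groups was 0.507, and DD1 again lay inside it. The log2 difference was 0.84 (SE 0.159), or 1.79-fold. Leaving out each purebred dog in turn kept the difference between 0.73 (without Dal4) and 0.88 (without Joey) at probe set 1, and between 0.76 (without Frog) and 0.90 (without Joey) at probe set 2. DD1 stood at 0.414 and 0.492 of the way up, counted upward with 0 at the mean of the non-Golden Retrievers and 1 at that of the Golden Retrievers. The 3 male Golden Retrievers had 12.61 (ChadG4), 12.75 (ChadG8) and 13.06 (Tucker) at probe set 1. Because the whole groups did not overlap, any part of them is separate as well, and the part of sex was not tested.

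**Figure D1:**
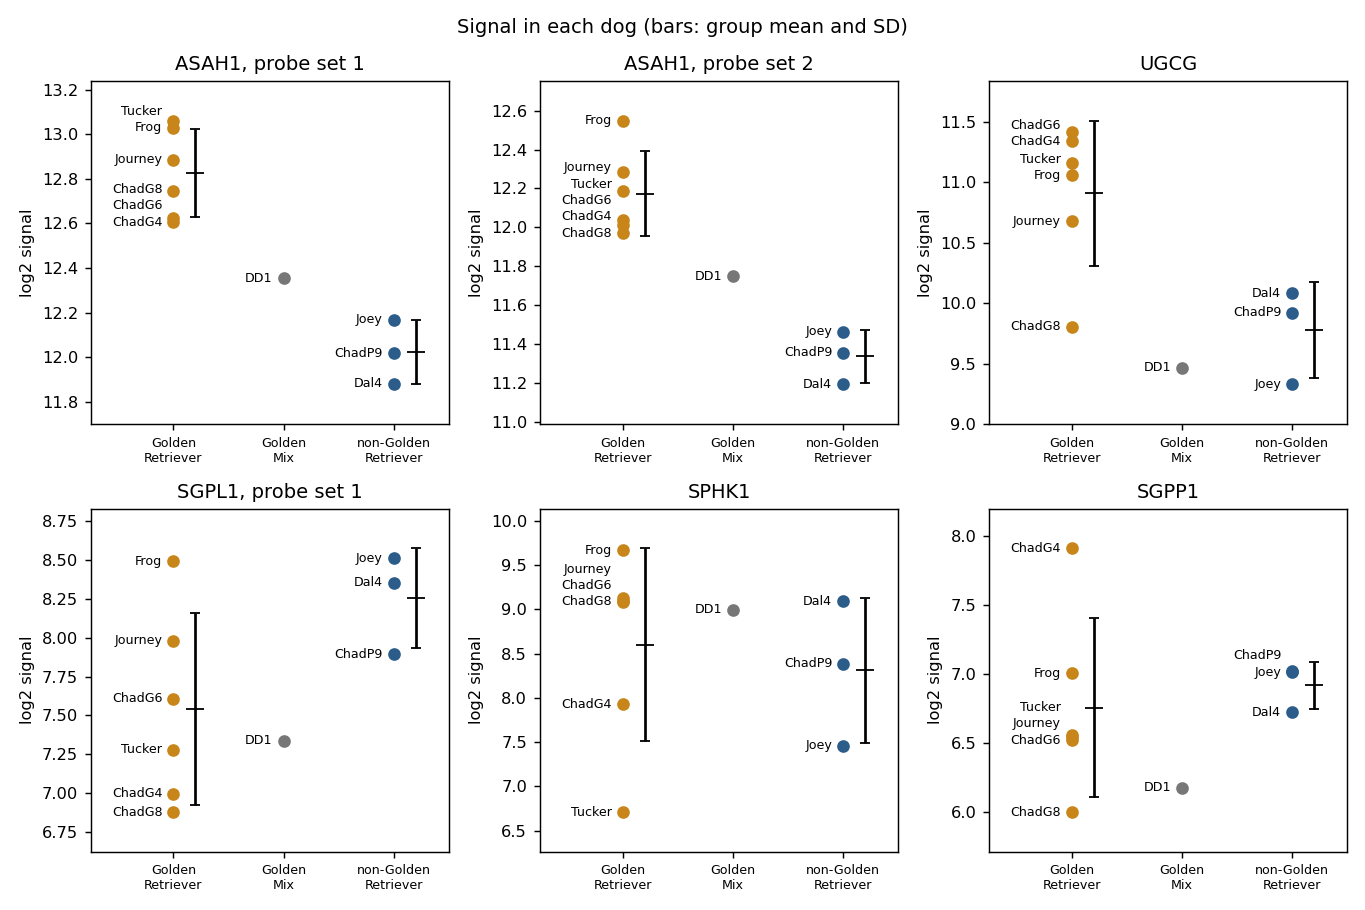
Log2 signal of 5 genes in each dog, with Golden Retrievers on the left, the Golden Mix dog in the middle and non-Golden Retrievers on the right; points are dogs, and bars are the group mean and SD (n = 6 and n = 3). ASAH1 is the gene plotted here whose groups do not overlap, while UGCG overlaps through ChadG8 and SPHK1 and SGPP1 have their extremes within the Golden Retriever group.

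UGCG encodes ceramide glucosyltransferase, which turns ceramide into glucosylceramide, and had the largest mean difference of the set. The Golden Retrievers had 11.34 (ChadG4), 11.42 (ChadG6), 9.80 (ChadG8), 11.06 (Frog), 10.68 (Journey) and 11.16 (Tucker). DD1 had 9.47, and the non-Golden Retrievers had 9.92 (ChadP9), 10.08 (Dal4) and 9.33 (Joey). The other 5 Golden Retrievers lay above every non-Golden Retriever, and ChadG8 lay among them, as did DD1. The means were 10.91 ± 0.601 in the Golden Retriever group (SD, n = 6) against 9.78 ± 0.398 in the non-Golden Retriever group (SD, n = 3), a log2 difference of 1.13 (SE 0.351) or 2.19-fold, which ran from 0.91 without Joey to 1.35 without ChadG8.

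The other genes that make or release ceramide differed little. SMPD1 encodes acid sphingomyelinase, the lysosomal enzyme that frees ceramide from sphingomyelin. Its probe set 1 had 8.53 at its lowest (ChadG4), a median of 9.36 and 9.53 at its highest in Golden Retrievers, 9.56 in DD1, and 8.85 (ChadP9), 8.73 (Dal4) and 9.15 (Joey) in non-Golden Retrievers. ChadG4 was thus the lowest and DD1 the highest of all 10 dogs. The log2 differences of the 3 probe sets were 0.31 (SE 0.234), 0.17 (SE 0.208) and 0.15 (SE 0.191). With 1 dog left out, that of probe set 1 ran from 0.22 (without Dal4) to 0.45 (without ChadG4), that of probe set 2 from 0.09 (without Dal4) to 0.29 (without ChadG4), and that of probe set 3 from 0.08 (without ChadG8) to 0.23 (without ChadG4). All stayed positive. CERS2, the ceramide synthase for very long acyl chains, had 8.78 ± 0.401 in the Golden Retriever group (SD, n = 6) against 8.89 ± 0.404 in the non-Golden Retriever group (SD, n = 3). Its log2 difference was -0.11 (SE 0.266) and became 0.12 without Dal4, the highest dog at 9.35, and 0.03 without Tucker, the lowest at 8.10.

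SGPL1 encodes sphingosine-1-phosphate lyase, which cleaves sphingosine-1-phosphate for good, and was the gene of the set with the lowest difference. At probe set 1 the Golden Retrievers had a lowest signal of 6.88 (ChadG8), a median of 7.44 and a highest of 8.49 (Frog), with Journey next at 7.98. DD1 had 7.34, and the non-Golden Retrievers had 7.89 (ChadP9), 8.35 (Dal4) and 8.51 (Joey). Frog and Journey, the related pair, overlapped with the non-Golden Retrievers at this probe set, and the other 4 Golden Retrievers and DD1 lay below them. At probe set 2 Frog alone overlapped, since Journey had 7.87 and ChadP9, the lowest non-Golden Retriever, had 7.89. The log2 difference was -0.72 (SE 0.351) at probe set 1 and -0.80 (SE 0.380) at probe set 2. Without Frog these were -0.91 and -1.03.

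SPHK1, a cytosolic sphingosine kinase, varied most between dogs, with an SD over all dogs of 0.92 that exceeded that of 94.0% of tested probe sets. The Golden Retrievers had 7.93 (ChadG4), 9.10 (ChadG6), 9.09 (ChadG8), 9.67 (Frog), 9.13 (Journey) and 6.71 (Tucker), DD1 lay between ChadG4 and ChadG8, and the non-Golden Retrievers had 8.39 (ChadP9), 9.09 (Dal4) and 7.46 (Joey). The lowest and the highest dog of the study were both Golden Retrievers. The log2 difference of 0.29 (SE 0.630) was smaller than its error, and with 1 dog left out it ran from -0.14 (without Joey) to 0.67 (without Tucker) and 0.68 (without Dal4). SPHK2, the other sphingosine kinase, varied little, with SDs of 0.218, 0.143 and 0.0786 over all dogs at its 3 probe sets and log2 differences of -0.24 (SE 0.162), -0.05 (SE 0.141) and -0.10 (SE 0.108). Those of probe sets 1 and 2 were -0.09 and 0.06 without Dal4, and -0.40 and -0.10 without ChadP9. At probe set 3 the groups did not overlap, but the gap was 0.0069, which is smaller than the SD within either group.

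SGPP1, a phosphatase that returns sphingosine-1-phosphate to sphingosine, had 7.91 in ChadG4, while the other 5 Golden Retrievers ran from 6.00 (ChadG8) to 7.01 (Frog). DD1 had 6.17, and the non-Golden Retrievers had 7.02 (ChadP9), 6.72 (Dal4) and 7.01 (Joey). ChadG4 stood above every other dog, and the log2 difference of -0.16 (SE 0.355) was -0.39 without it, -0.26 without Dal4 and -0.01 without ChadG8, the lowest dog. The receptor S1PR2 had 6.67 ± 0.254 in the Golden Retriever group (SD, n = 6) against 6.81 ± 0.147 in the non-Golden Retriever group (SD, n = 3), a log2 difference of -0.14 (SE 0.173) that ran from -0.20 (without Joey) to -0.06 (without ChadP9). The receptor S1PR3 ran from 4.06 to 4.58 in Golden Retrievers, had 4.35 in DD1 and ran from 4.02 to 4.27 in non-Golden Retrievers, below the 40th percentile of every array (5.02 to 5.16), so no difference is given.

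Across the comparison of breeds, limma called 0 of the 15 member probe sets at an adjusted p under 0.05, and so did the methods' t-test. Without adjustment, limma gave 3 of them a p under 0.05 (both of ASAH1, and UGCG). Over all 26891 tested probe sets, limma called 1 at an adjusted p under 0.05 (0.00372%), and without adjustment 6.32% had a p under 0.05. The groups did not overlap, with Golden Retrievers higher, at 0.792% of all tested probe sets and at 2 of the members', both of ASAH1. They did not overlap, with Golden Retrievers lower, at 1.66% of all tested probe sets and at 1 of the members', that of SPHK2. Since the genes were selected with ASAH1 known, nothing is read from these counts. The adjusted p of both ASAH1 probe sets was 0.75 by limma, and those of the other 13 ran from 0.774 to 0.97. By the probe set of highest mean, 4 genes were higher in Golden Retrievers (ASAH1, UGCG, SMPD1 and SPHK1) and 5 were lower, with a median log2 difference of -0.11, against -0.02 over 11143 tested genes.

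**Figure D2:**
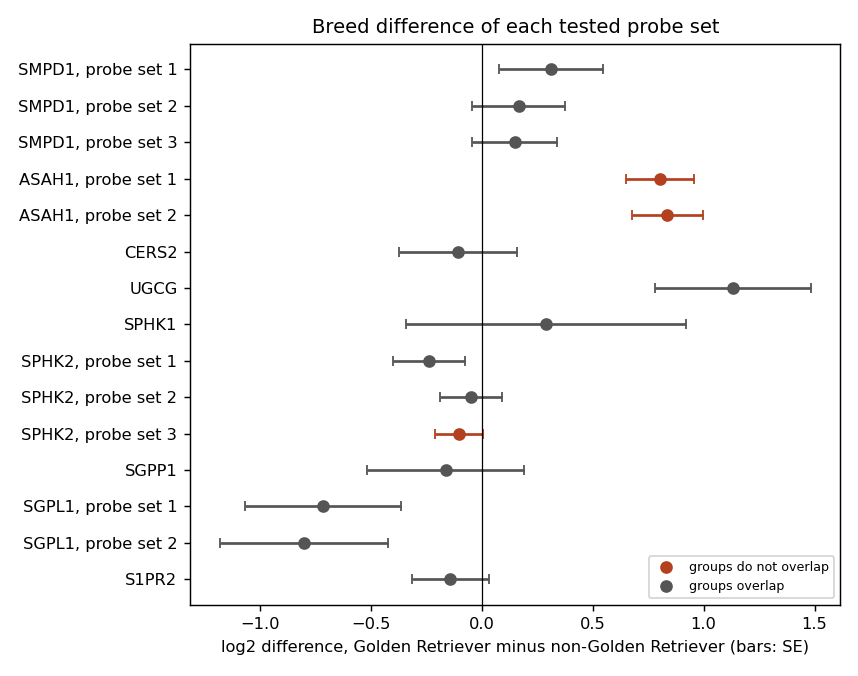
Difference in log2 signal (mean of Golden Retrievers less that of non-Golden Retrievers) at each of the 15 tested probe sets, with bars for the SE of the limma fit and red points where the groups do not overlap. The probe sets of ASAH1 stand together at 0.80 and 0.84 and those of SGPL1 at -0.72 and -0.80, UGCG is furthest right at 1.13 with a wider error, and the remaining points lie between -0.24 and 0.31.

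Probe sets of the same gene differed in how well they followed each other over the 10 dogs. For SGPL1 the pair had r = 0.993 (Spearman's rho 0.976), for ASAH1 r = 0.967 (rho 0.927), and for probe sets 1 and 2 of SMPD1 r = 0.971 (rho 0.976). The median r of probe set pairs over 5716 genes was 0.870, with quartiles of 0.671 and 0.953, so these 3 pairs stood above the upper quartile. Within the 6 Golden Retrievers alone the ASAH1 pair had r = 0.763, the SGPL1 pair 0.993 and the SMPD1 pair 0.986. The third probe set of SMPD1 followed the others less, with r = 0.590 and 0.681, and these were 0.219 and 0.381 without ChadG4 and Dal4. The probe sets of SPHK2 had r = 0.826, 0.708 and 0.595. Some of these probe sets, probe set 2 of ASAH1 among them, are of a type whose probes can match several transcripts, and probes of 1 gene can overlap, so agreement does not make a pair independent.

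**Figure D3:**
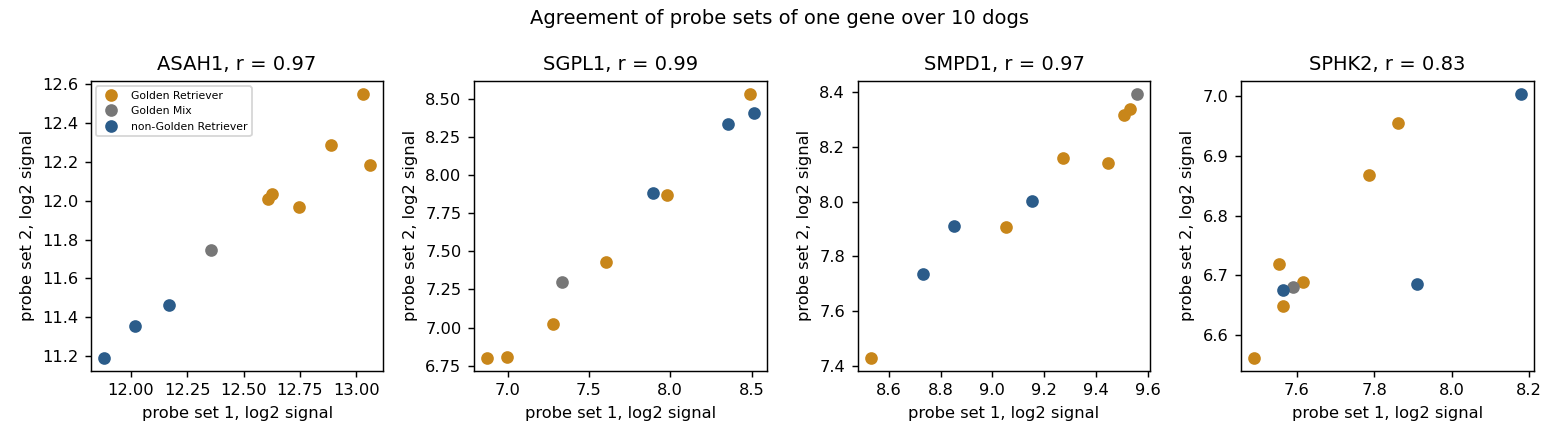
Log2 signal of probe set 2 against probe set 1 of 4 genes, with 1 point per dog colored by breed label. The dogs line up closely for ASAH1, SGPL1 and SMPD1, where r over 10 dogs is at least 0.967, and more loosely for SPHK2, with r = 0.826.

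Correlations between the 9 tested genes were computed over the 10 dogs for all 36 pairs, by the probe set of highest mean, and carry no p. They ran from -0.79 to 0.69 with a median of -0.02, so the genes did not move as 1 block. In 4 pairs r was above 0.5 and in 2 below -0.5. Without the 2 dogs furthest from the median of the first gene, 4 of these 6 pairs kept a size above 0.5, and within Golden Retrievers 4 did. Over all 36 pairs, the sign was kept in 25 without these dogs and in 28 within Golden Retrievers.

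The strongest relation was an opposite one between the phosphatase SGPP1 and the sphingomyelinase SMPD1, with r = -0.786 (rho -0.794), -0.715 without ChadG4 and Dal4, and -0.869 within Golden Retrievers. SGPP1 followed the receptor S1PR2, with r = 0.687 (rho 0.721), 0.538 without ChadG4 and ChadG8, and 0.722 within Golden Retrievers. S1PR2 in turn ran opposite to SMPD1, with r = -0.605 over all dogs and -0.556 within Golden Retrievers, but -0.479 and -0.171 with the other probe sets of SMPD1. These 3 relations were of the same sign in the whole set and within the breed. The pair of CERS2 and SPHK1 had r = 0.668 over all dogs and 0.659 within Golden Retrievers. It had 0.294 without Tucker and Dal4 and 0.338 with only Tucker left out, so its value rests largely on Tucker. SPHK2 and SGPL1 had r = 0.602, and 0.317 without Dal4 and Joey. SGPP1 and the lyase SGPL1, which compete for the same substrate, had r = 0.173 over all dogs and 0.0266 within Golden Retrievers. With 1 dog left out it ran from -0.0924 (without ChadG8) to 0.854 (without ChadG4), so single dogs set its value.

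**Figure D4:**
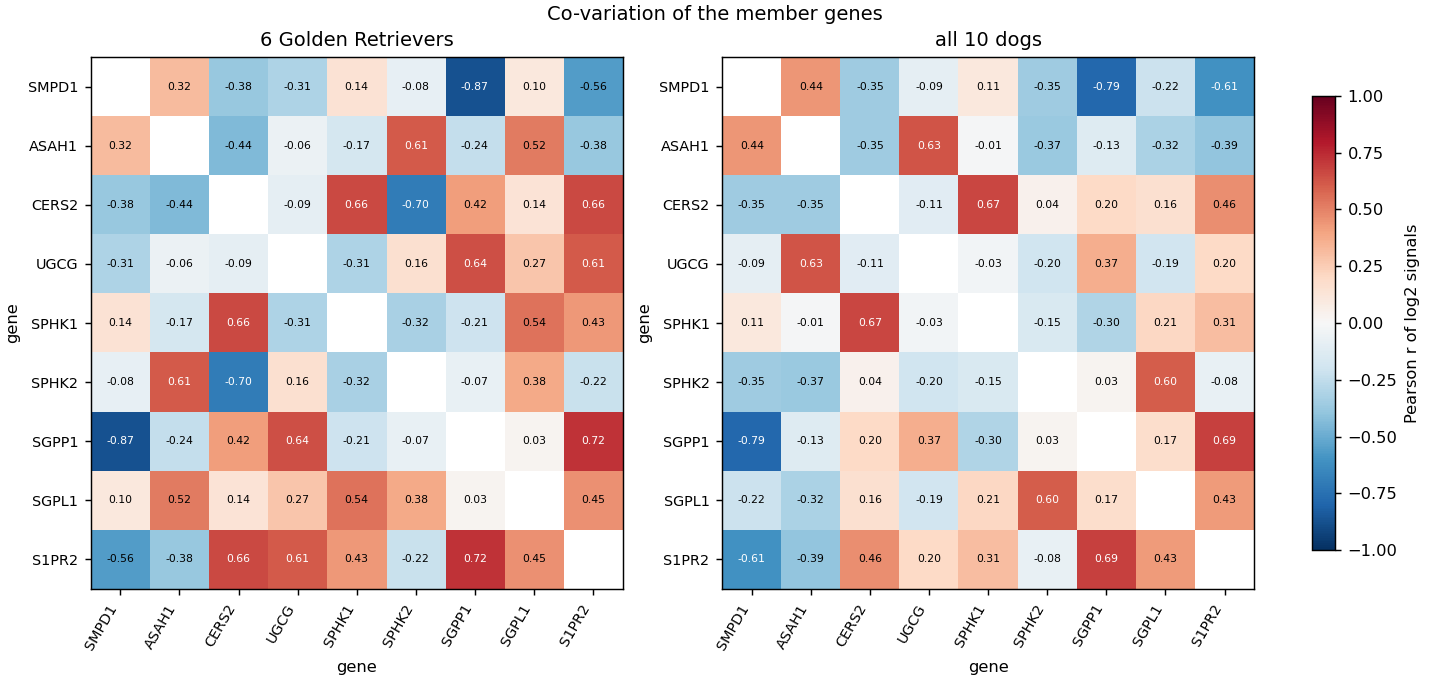
Pearson r of log2 signals between the 9 tested genes, within the 6 Golden Retrievers on the left and over all 10 dogs on the right, with red for positive and blue for negative values. SGPP1 against SMPD1 is blue in both maps (-0.87 and -0.79), and ASAH1 against UGCG is red over all dogs (0.63) but near 0 within Golden Retrievers (-0.06).

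ASAH1 and UGCG had r = 0.626 (rho 0.467) over all dogs, above that of 98.2% of tested probe sets with ASAH1, but r = -0.0576 within Golden Retrievers. Both genes had higher means in Golden Retrievers, so the pooled value holds the difference between the groups, and the groups separate completely for ASAH1. SMPD1, the other lysosomal enzyme of the set, had r = 0.439 with ASAH1 over all dogs and 0.317 within Golden Retrievers. SPHK2 and SGPL1 had r = -0.374 and -0.320 with ASAH1 over all dogs but 0.614 and 0.520 within Golden Retrievers, so both changed sign. Of the 26889 other tested probe sets, 6.14% had r above 0.5 and 10.3% had r below -0.5 with ASAH1.

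The named genes with the highest r to ASAH1 were LYPD3, a cell surface protein (0.891), F3, tissue factor, which starts blood clotting (0.820), PDGFD, a platelet-derived growth factor (0.816), HIPK4, a protein kinase (0.813), and PTGDR, a prostaglandin D2 receptor (0.811). Within Golden Retrievers PDGFD kept r = 0.924 and LYPD3 0.708, and the other 3 had 0.397 to 0.462. LYPD3 spanned little signal, with 5.25 ± 0.0684 in the Golden Retriever group (SD, n = 6) against 5.07 ± 0.0614 in the non-Golden Retriever group (SD, n = 3), close to the 40th percentile. The lowest r belonged to THBS3, a thrombospondin of the matrix (-0.905), STK10, a protein kinase (-0.896), VPS13C, a lipid transfer protein (-0.892), PNMA1 (-0.891) and PPP2R5E, a regulatory subunit of protein phosphatase 2A (-0.882). Within Golden Retrievers VPS13C had r = -0.935 and STK10 -0.753, while THBS3 had -0.139. With the second ASAH1 probe set in place of the first, r ran from 0.682 to 0.812 and from -0.893 to -0.821. The probe sets of ASAH1 had r = 0.967 with each other, so a change of sign was not possible and these values add no support.

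Other genes of sphingolipid metabolism were taken from a list of 63, of which 40 were tested. Of these, 24 had higher means in Golden Retrievers and 16 lower, with a median log2 difference of 0.07, against 46.7% of all tested genes with higher means. Limma and the methods' t-test called 0 of them at an adjusted p under 0.05. Without adjustment, limma called 3 at a p under 0.05, where it called 6.14% of all genes. All 3 by limma were lower in Golden Retrievers. PLEKHA8, which carries glucosylceramide out of the early Golgi, had 7.50 at its lowest, a median of 7.72 and 8.33 at its highest in Golden Retrievers, 7.48 in DD1, and 8.21 (ChadP9), 8.84 (Dal4) and 8.80 (Joey) in non-Golden Retrievers. Its groups overlapped only at ChadG4, and its log2 difference was -0.85 (SE 0.215). The other 2, named after their values were seen, were the Golgi ceramidase ACER2 and the ceramide transfer protein CERT1. ACER2 had -0.90 (SE 0.338) but lay above the 40th percentile on only 6 of the 10 arrays. CERT1 had -0.38 (SE 0.156), and its groups did not overlap, but only just. Its highest Golden Retriever had 7.07 and its lowest non-Golden Retriever 7.15, a gap smaller than the SD within either group. Over all tested probe sets, 1.66% separated the groups in this direction. Each gene of the list is given by its tested probe set of highest mean, 1 of 2 for ACER2 and 1 of 4 for CERT1. By role, the 3 tested genes of ceramide transfer and phosphorylation were all lower. The 6 tested receptors, transporters and phosphatases of sphingosine-1-phosphate besides the selected ones were all higher. They ran from 0.06 (S1PR5, SE 0.132) to 0.62 (PLPP3, SE 0.443), and 0 of them had an unadjusted p under 0.05 by limma. Of the selected genes with these roles, S1PR2 (-0.14) and SGPP1 (-0.16) were lower. Of the 14 genes of glycosphingolipid synthesis and breakdown, 10 were higher.

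Acid ceramidase and acid sphingomyelinase work in the lysosome, and 36 of 40 other lysosomal genes were tested. Of these, 28 had higher means in Golden Retrievers (77.8%) and 8 lower, with a median log2 difference of 0.17. Over all tested genes, 46.7% had higher means and the median was -0.02. Limma and the methods' t-test called 0 of them at an adjusted p under 0.05. Without adjustment, limma gave 4 a p under 0.05, where it called 6.14% of all genes. The 4 genes by limma were all higher in Golden Retrievers. ATP6V0A1, a subunit of the proton pump that acidifies the lysosome, had 8.88 at its lowest, a median of 9.19 and 9.62 at its highest in Golden Retrievers, 9.24 in DD1, and 8.48 (ChadP9), 8.67 (Dal4) and 8.04 (Joey) in non-Golden Retrievers. Its groups did not overlap, and its log2 difference was 0.82 (SE 0.197). Over all tested probe sets, 0.792% separated the groups in this direction. The other 3, named after their values were seen, were the cholesterol exporter NPC1, at 0.64 (SE 0.253), the membrane protein LAMP1, at 0.50 (SE 0.205), and the mannosidase MAN2B1, at 1.02 (SE 0.432). Of these, NPC1 alone had groups that did not overlap, and only just. Its lowest Golden Retriever had 8.89 and its highest non-Golden Retriever 8.88, a gap smaller than the SD within either group. At LAMP1 and MAN2B1, Dal4 was the lowest of all 10 dogs, with 11.78 and 6.82. ChadP9 and Joey had 12.63 and 12.26 at LAMP1, and 8.09 and 8.40 at MAN2B1. Each of these genes is given by its tested probe set of highest mean, 1 of 3 for ATP6V0A1 and NPC1 and 1 of 2 for LAMP1 and MAN2B1. The mean signal over the 36 lysosomal genes ran from 8.87 to 9.33 in Golden Retrievers and from 8.82 to 9.08 in non-Golden Retrievers, so the groups overlapped. Its r with ASAH1 was 0.509 over all dogs and -0.0489 within Golden Retrievers.

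Markers of other cell types were set beside ASAH1 in the same way. The 8 macrophage and blood genes, of which 3 were below the 40th percentile on every array, had a mean signal of 5.24 to 5.69 in Golden Retrievers and 5.14 to 5.41 in non-Golden Retrievers, and r with ASAH1 of 0.519 over all dogs and 0.283 within Golden Retrievers. The 7 fibroblast genes had 11.76 to 12.26 in Golden Retrievers and 10.70 to 12.08 in non-Golden Retrievers, and r of 0.490 and 0.202. The lowest value, 10.70, was that of Dal4, and ChadP9 and Joey had 11.89 and 12.08. The 10 endothelial genes had 4.95 to 5.66 and the 5 smooth muscle genes 7.34 to 10.97 in Golden Retrievers, against 4.82 to 5.41 and 8.68 to 10.25 in non-Golden Retrievers. The endothelial mean had r with ASAH1 of 0.234 over all dogs and -0.827 within Golden Retrievers, and the smooth muscle mean 0.247 and 0.590. FLT1 weighs most in the endothelial mean within Golden Retrievers, where it ran from 3.67 to 8.38 (SD 1.94). The next largest SD of the endothelial genes there was 0.504 (VWF), so the value of -0.827 is not one of these markers at large. Single markers at an unadjusted p under 0.05 by limma were ERG and DCN, both named after their values were seen, where limma called 6.14% of all genes. The endothelial transcription factor ERG had a log2 difference of 0.90 (SE 0.356), and the matrix proteoglycan DCN had 0.74 (SE 0.297). Other markers of their lists went the other way. Of the 6 tested endothelial genes, 4 were higher in Golden Retrievers and 2 lower, CDH5 (-0.10) and KDR (-0.14). Of the 7 fibroblast genes, 5 were higher and 2 lower, PDGFRA (-0.95) and PDGFRB (-0.18). The mean signals of all 4 lists overlapped between the groups, and the part of these markers in the difference of ASAH1 was not tested.

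ASAH1 lies on chromosome 16 of the dog assembly UU_Cfam_GSD_1.0, between PCM1 and FRG1. Of the 10 genes on either side that have a probe set, 11 were tested, and all 11 had higher means in Golden Retrievers, from 0.14 (CNOT7) to 1.38 (PDGFRL), with a median log2 difference of 0.40. None of the 11 separated the groups, and Dal4 was the lowest of all 10 dogs at 9 of them, against 17.1% of all tested probe sets. Without Dal4, a setting chosen after seeing the data, the median was 0.05 and 6 of the 11 stayed higher. PCM1, a centrosome protein, had 0.48 with Dal4 and 0.05 without it, and FRG1 had 0.21 and -0.13. ASAH1 had 0.80 and 0.73, so its own difference was nearly as large without this dog.

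**Figure D5:**
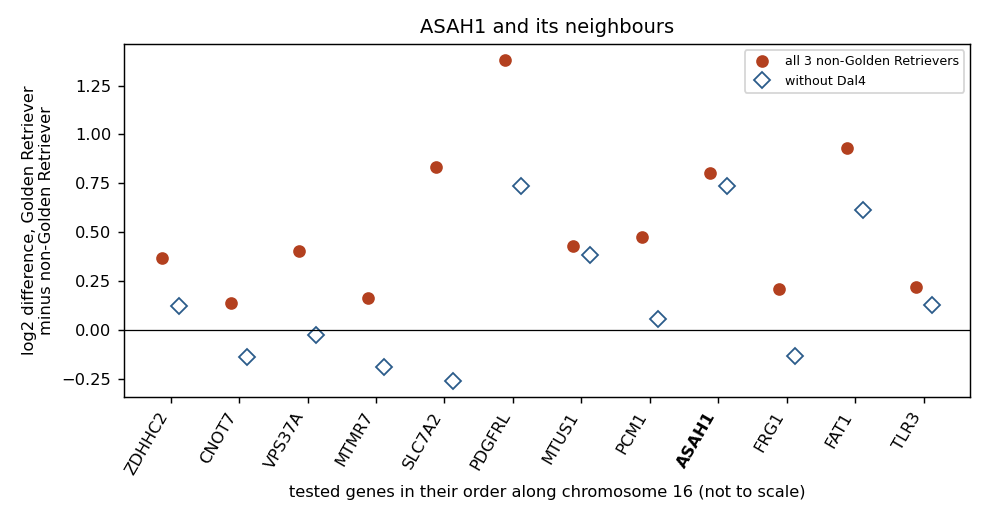
Difference in log2 signal (mean of Golden Retrievers less that of non-Golden Retrievers) of ASAH1 and its 11 tested neighbours in their order along the chromosome, with all 3 non-Golden Retrievers (red circles) and without Dal4 (blue diamonds). Every red circle is above 0, 5 neighbours fall below 0 without Dal4, and ASAH1 stays at 0.73.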

How the data were processed

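Tumor cell RNA of 10 dogs was measured on Affymetrix Canine_2 arrays. The authors normalized the arrays with RMA, and the deposited values are log2 signals per probe set. The version of RMA and the genome build are not given in the sources used here, and the detection calls behind the authors' filter are not used here. Genes were named from the platform annotation: 29254 probe sets have 1 symbol, 439 several and 13231 none, and only the first kind was named. After 111 control probe sets were left out, probe sets above the 40th percentile of their array on at least 3 arrays were tested (26891). Differences were fitted with limma 3.58.1 in R 4.3.3, 6 Golden Retrievers against 3 non-Golden Retrievers with DD1 left out, two-sided, with Benjamini-Hochberg adjustment over all tested probe sets. The number of arrays limits the precision. Each p-value sets a difference of means against the spread over these arrays, which cannot be split into dog, culture and array. The fit was tested on simulated data. RMA draws arrays to 1 distribution, which removes any overall shift between them. The members, the lists and the tests were chosen with earlier results of these data known. Named genes were all members; genes of the sphingolipid and lysosome lists at an unadjusted p under 0.01; the 5 highest and 5 lowest correlations with ASAH1; and the 10 neighbours on either side of it with a probe set. Alternatives changed the filter, the centring, the test, the place of DD1 and the dogs included.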

Additional observations from a re-analysis of the deposited data

How the results depend on the processing

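The comparison of breeds called 1 probe set at an adjusted p under 0.05 by limma, 2 by the methods' t-test, and 0 with DD1 counted among the non-Golden Retrievers. With each purebred dog left out in turn the count ran from 1 to 2, with 2 without Joey. Among the members, and among the other sphingolipid genes, 0 passed under every setting run, which at 6 dogs against 3 does not show that they do not differ. Of 218 member differences under the alternatives, 0 moved by as much as the SD between dogs. The sign was kept at 11 of 15 member probe sets, those of ASAH1, UGCG, SGPL1, SMPD1 and S1PR2 among them, and turned under at least 1 setting at CERS2, SPHK1, SGPP1 and probe set 2 of SPHK2. Of 232 values of r under alternatives, 43 had the opposite sign. For leaving out 1 dog and for other probe sets, these 232 hold only the lowest and the highest r of a pair. Where a pair had 1 other combination of probe sets, its r is counted under both. The median difference of the ASAH1 neighbours, 0.40, was 0.0528 without Dal4, a setting added after seeing the data. No paired analysis was possible because the labels number no replicates across the groups. Signals near the 40th percentile of an array, as for S1PR3, limit what can be read of low genes.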
